A study of Mus musculus with 16 samples.

Results

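The genes described here belong to the integrated stress response, the program that runs through the transcription factor Atf4. They are the transcription factors Atf4, Atf3, Ddit3 and Cebpb, the feedback regulators Ppp1r15a and Trib3, the metabolic enzymes Asns and Chac1, and the mTORC1 inhibitors Sesn2 and Ddit4. These 10 genes were taken by symbol from the 23356 genes listed for each library, and all 10 were found. RNA was sequenced from NIH3T3 cells, a mouse fibroblast line, in a population sorted for high fluorescence of a stably introduced fusion of a destabilizing domain with superfolder GFP (DD-sfGFP). The destabilizing domain is a mutant FKBP12 that the proteasome degrades when its ligand is absent. The study kept this ligand in the medium until it was withdrawn to unfold the domain. It does not state this separately for the cells given bortezomib. The 16 libraries formed 4 groups of 4 replicates: control cells harvested at 0 min without a stress, and cells harvested after 45, 135 or 405 min with bortezomib, which blocks the proteasome. All groups carried DD-sfGFP, and the labels gave neither the dose of bortezomib nor whether replicates came from separate cultures, so the p-values below measure only the spread between these libraries. Libraries treated with vehicle for the same times were not analysed here, so the drug and the time in culture cannot be told apart.

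In the integrated stress response, kinases that sense unfolded proteins, amino acid shortage, heme shortage or double-stranded RNA phosphorylate the translation factor eIF2. Translation slows in general, while the Atf4 message is translated more, and Atf4 protein, paired with other leucine zipper factors such as the C/EBP proteins, activates genes for amino acid supply, redox balance, feedback and cell death. Proteasome inhibitors are known to engage this program together with the heat shock response.

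Atf4 pairs bind a composite site, the C/EBP-ATF response element (CARE), with the core TGATGNAA. In RefSeq promoters of assembly GRCm38.p6, taken from 250 bases before to 50 bases after the first listed start site of each gene, this core was found on either strand in 4 of the 10 genes and in 4.06% of 27025 promoters. The matches began 23 bases before the start site in Asns, 193 before it in Chac1, 110 before it in Atf3 and 14 after it in Trib3. The cAMP response element TGACGTCA, which reads alike on both strands and does not overlap the CARE core, was found in Ppp1r15a, 12 bases before the start site, and in 1.88% of all promoters. The ER stress element (CCAAT and CCACG with 9 bases between them) and the heat shock element (TTC, GAA and TTC with 2 bases between each) were found in 0 of the 10 windows. The 200 bases before the start site are printed for the members whose levels are described in most detail below and that hold a match there, 5′ to 3′ on the strand of the gene, with the CARE match (or, in Ppp1r15a, the cAMP response element) in capitals.
Asns, chr6:7693210-7693409, minus strand: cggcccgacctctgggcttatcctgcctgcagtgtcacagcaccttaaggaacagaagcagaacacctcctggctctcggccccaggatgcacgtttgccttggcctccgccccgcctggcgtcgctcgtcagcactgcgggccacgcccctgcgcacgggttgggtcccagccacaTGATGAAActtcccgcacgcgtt
Chac1, chr2:119351042-119351241, plus strand: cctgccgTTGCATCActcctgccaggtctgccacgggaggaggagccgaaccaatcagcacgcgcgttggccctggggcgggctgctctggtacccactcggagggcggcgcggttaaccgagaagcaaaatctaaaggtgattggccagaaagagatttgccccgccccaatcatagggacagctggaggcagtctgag
Atf3, chr1:191183334-191183533, minus strand: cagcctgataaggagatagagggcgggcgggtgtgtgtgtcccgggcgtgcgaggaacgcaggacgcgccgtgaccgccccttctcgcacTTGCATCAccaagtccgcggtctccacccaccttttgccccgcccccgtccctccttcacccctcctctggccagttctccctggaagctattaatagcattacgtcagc
Ppp1r15a, chr7:45526269-45526468, minus strand: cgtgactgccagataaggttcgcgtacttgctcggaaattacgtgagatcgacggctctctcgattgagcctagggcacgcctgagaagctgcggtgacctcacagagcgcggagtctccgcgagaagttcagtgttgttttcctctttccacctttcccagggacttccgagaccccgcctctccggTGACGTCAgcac
A match describes the letters in the window and says nothing about binding.

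The libraries differed in composition, and this touches every level given below. Depth ran from 570323 to 19930375 fragments assigned to genes. Ribosomal protein genes took 4.25% to 9.42% of the fragments in 7 libraries, called ribosomal protein-rich here, and 0.398% to 1.21% in the other 9, called ribosomal protein-poor. The 7 rich libraries were replicates 1 and 2 at 45 min, replicates 1 and 2 at 135 min, and replicates 1, 3 and 4 at 405 min, and none was a control. The 1445 olfactory and vomeronasal receptor genes, which fibroblasts are not known to use, took 4.16% to 5.13% of fragments in the poor libraries. In the rich ones they took 0.00556% to 2.62%. The 2 rich libraries at 135 min differed, with 0.370% in replicate 1 and 1.42% in replicate 2. Of all genes, 49.5% and 5.76% had no fragment in these 2. Summed CPM (fragments of a gene per 1000000 fragments assigned to genes) of 10 fibroblast markers was 294 to 1709 in the poor and 3493 to 22084 in the rich libraries, and that of 10 markers of other cell types was 210 to 412 and 2.83 to 166. All 10 fibroblast markers had a count in every rich library. A comparison of all libraries with control therefore mixes bortezomib with composition. Treated and control libraries of one composition could be compared only among the poor, which hold 2 libraries at 45 min, 2 at 135 min and 1 at 405 min, and the time course was read within the 7 rich libraries. As a check of the treatment, Hspa1b, an inducible Hsp70 chaperone, had 19.7 to 48.8 CPM in the controls and 2834, 1292, 10097 and 5899 CPM in replicates 1 to 4 at 405 min. At 45 min it had 71.6 and 163 CPM in the rich libraries and 12.9 and 52.9 CPM in the poor ones. At 135 min it had 2427 and 770 CPM in the rich libraries and 42.1 and 51.1 CPM in the poor ones. The poor libraries at 45 and 135 min thus showed little or no rise in this check.

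**Figure D1:**
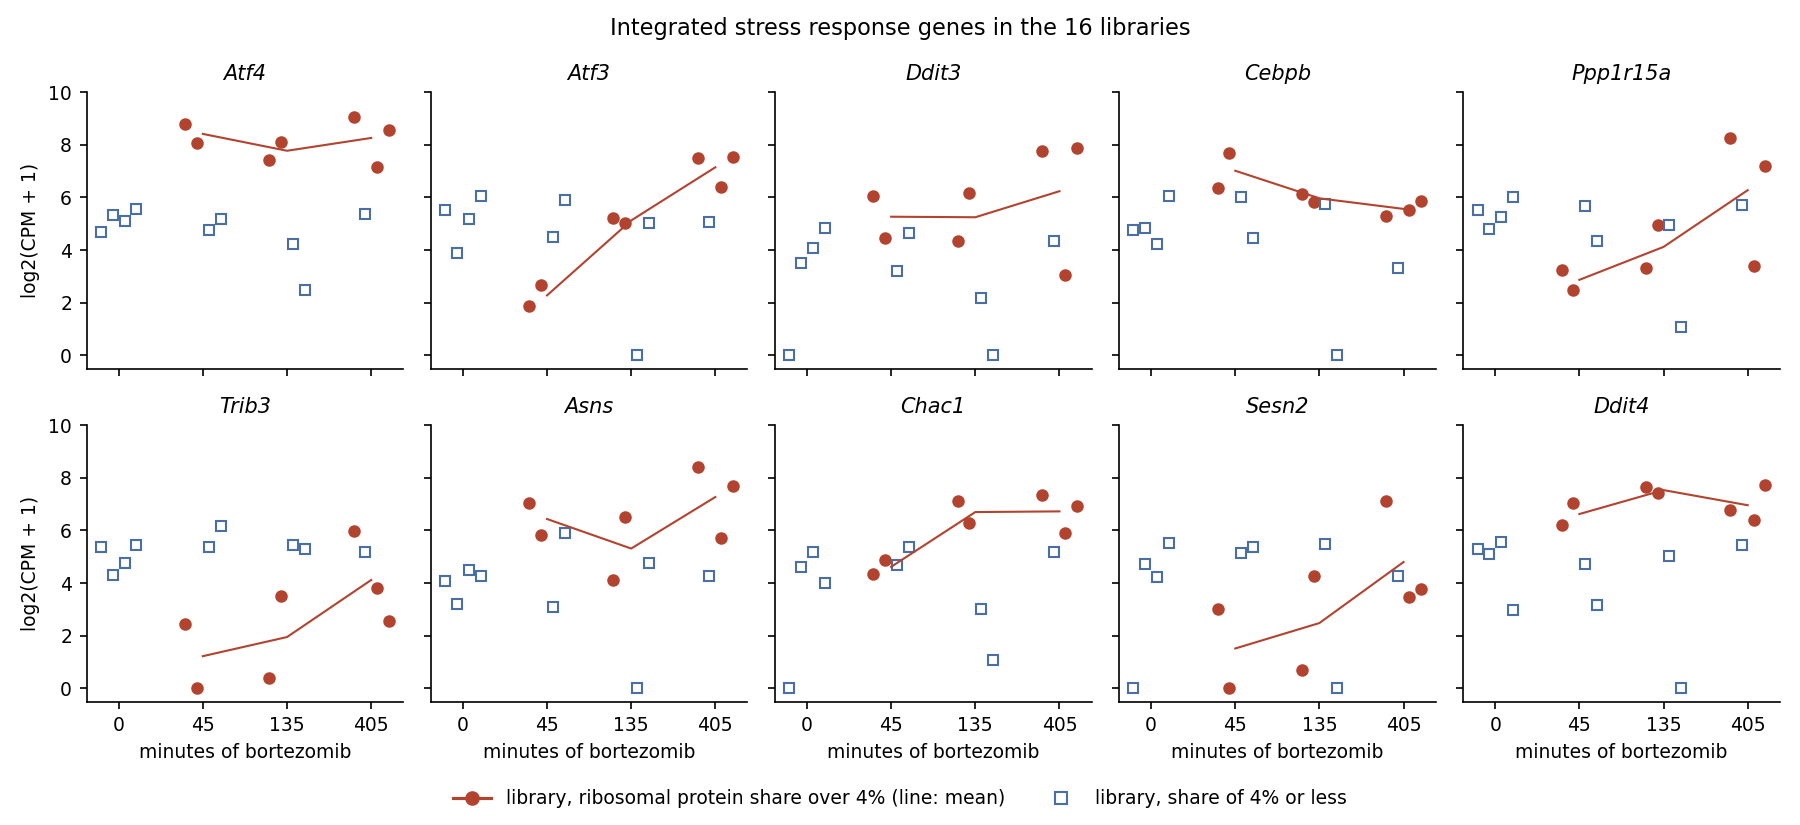
Level of each of the 10 genes as log2(CPM + 1) in every library, against minutes of bortezomib (0 min is control). Filled circles are the 7 libraries with a ribosomal protein share over 4% and the line joins their means. Open squares are the other 9, which include all 4 controls. Atf4 and Ddit4 lie higher in all 7 circles than in any square, and the circles of Atf3 climb from 45 to 405 min.

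Against control, neither of the 2 members that edgeR tested passed, and none of the other 8 passed the exact permutation test. That test could call no gene here. Its smallest adjusted p over all genes was 0.563, 0.297 and 0.282 at 45, 135 and 405 min, so it does not decide whether these 8 changed. Without a filter on low counts edgeR fitted all 10, and their smallest adjusted p was 0.418, at 405 min. The level of Atf4 split by library composition. Atf4, the central transcription factor of the response (chr15:80085614-80087970, plus strand, in the NCBIM37 annotation), had 24.8, 39.5, 33.7 and 46.2 CPM in control replicates 1 to 4. It had 435, 264, 25.9 and 35.2 CPM at 45 min, 172, 274, 17.5 and 4.54 CPM at 135 min, and 532, 40.3, 140.0 and 378 CPM at 405 min. The 7 rich libraries, at 140.0 CPM or more, all lay above the 9 poor ones, which reached at most 46.2 CPM whether they were controls or treated. In edgeR's quasi-likelihood test the log2 fold change of Atf4 against control at 45 min was 2.84 (SE 1.21, adjusted p = 0.381). At 135 min it was 1.97 (SE 1.17, adjusted p = 0.548), and 405 min gave 3.30 (SE 1.23, adjusted p = 0.285). Among the poor libraries alone it was -0.24 at 45 min and -1.89 at 135 min, where Atf4 had only 10 and 4 fragments. In those treated libraries Hspa1b, the check of the treatment, reached at most 52.9 CPM, against up to 48.8 CPM in the controls. With the log2 ribosomal protein share as a covariate the log2 fold change of Atf4 was -0.16, -1.26 and -0.26 at the 3 times (adjusted p = 0.9996, 0.998 and 0.999, edgeR).

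Ppp1r15a, the regulatory subunit that directs protein phosphatase 1 to eIF2 and so ends the response, was the other member with a count in every library. Its control levels were 45.2, 26.7, 37.0 and 63.6 CPM, and at 405 min it had 304, 52.0, 9.38 and 145 CPM. The groups overlapped, since replicate 3 at 405 min lay below every control. Its log2 fold change at 405 min was 1.92 (SE 0.91, adjusted p = 0.312, edgeR), and at 45 and 135 min it was -1.01 (SE 0.91, adjusted p = 0.656) and -1.22 (SE 0.91, adjusted p = 0.628). Thus edgeR called 0 of the 2 tested members at each time, where it called 0.00% of the 5030 tested genes. At an unadjusted p under 0.05 Atf4 was higher at 45 and at 405 min and not at 135 min, where 12.1%, 14.5% and 7.83% of all tested genes were. Under DESeq2, Atf4 passed at 45 min with an adjusted p of 0.0393 and at 405 min with one of 0.0240, among 24.9% and 18.3% of the genes to which it gave an adjusted p. Without its independent filtering, chosen after seeing the data, DESeq2 called Atf4 at 405 min only. The adjusted p was 0.0495 there, and 217 of the 5030 genes in that fit were called.

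The other 8 members lacked a fragment in at least 1 library and were compared with control on the mean of log2(CPM + 1) with a 2-sided exact permutation test, run for every gene with a fragment in the libraries compared and adjusted over those genes. With 4 libraries against 4 its smallest possible p is 0.0286. Chac1, an enzyme that breaks down glutathione (chr2:119176965-119180117, plus strand), had 0, 23.2, 34.8 and 15.0 CPM in control and 163, 35.1, 58.5 and 119.8 CPM at 405 min. All 4 treated libraries lay above all 4 controls, an order that 2.69% of 22323 genes showed, although the poor library at 405 min, at 35.1 CPM, hardly exceeded the highest control, at 34.8 CPM. The difference was 2.89 (exact permutation p = 0.0286, adjusted p = 0.282 over all 22323 genes), and it was 1.75 without control replicate 1, where 0 of 885471 fragments allows up to 3.39 CPM. Ddit4 and Asns followed with differences of 1.84 (exact p = 0.0571) and 2.51 (exact p = 0.0857) at 405 min, each with 3 of 4 treated libraries above all controls. The adjusted p was at least 0.282 in all 24 tests of members, and 0.282 was also the smallest that any gene reached at 405 min.

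In the ribosomal protein-poor libraries the 10 genes were hard to tell from the receptor genes. Levels were compared on the deposited FPKM scale, which takes transcript length into account. At most 1 of the 10 lay above the 95th percentile of the receptor genes in each of the 9 poor libraries. In each of the 7 rich ones 6 to 10 did. That percentile was 21.6 to 55.3 FPKM in the poor libraries and 0 to 18.4 FPKM in the rich ones, and 2.98% to 8.38% of all genes lay above it in the poor libraries and 12.8% to 54.8% in the rich. The median FPKM of the 10 genes was 0.60 to 22.4 in the poor and 28.1 to 117 in the rich libraries. Their summed level was 103 to 395 CPM in the poor libraries. In the rich libraries it was 826 and 713 CPM at 45 min, 659 and 825 CPM at 135 min, and 2079, 501 and 1553 CPM in replicates 1, 3 and 4 at 405 min. Whether the low levels in the poor libraries reflect less message per cell, fewer cells or fragments of other origin was not tested, and in bulk RNA fewer cells and less RNA per cell cannot be told apart.

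**Figure D2:**
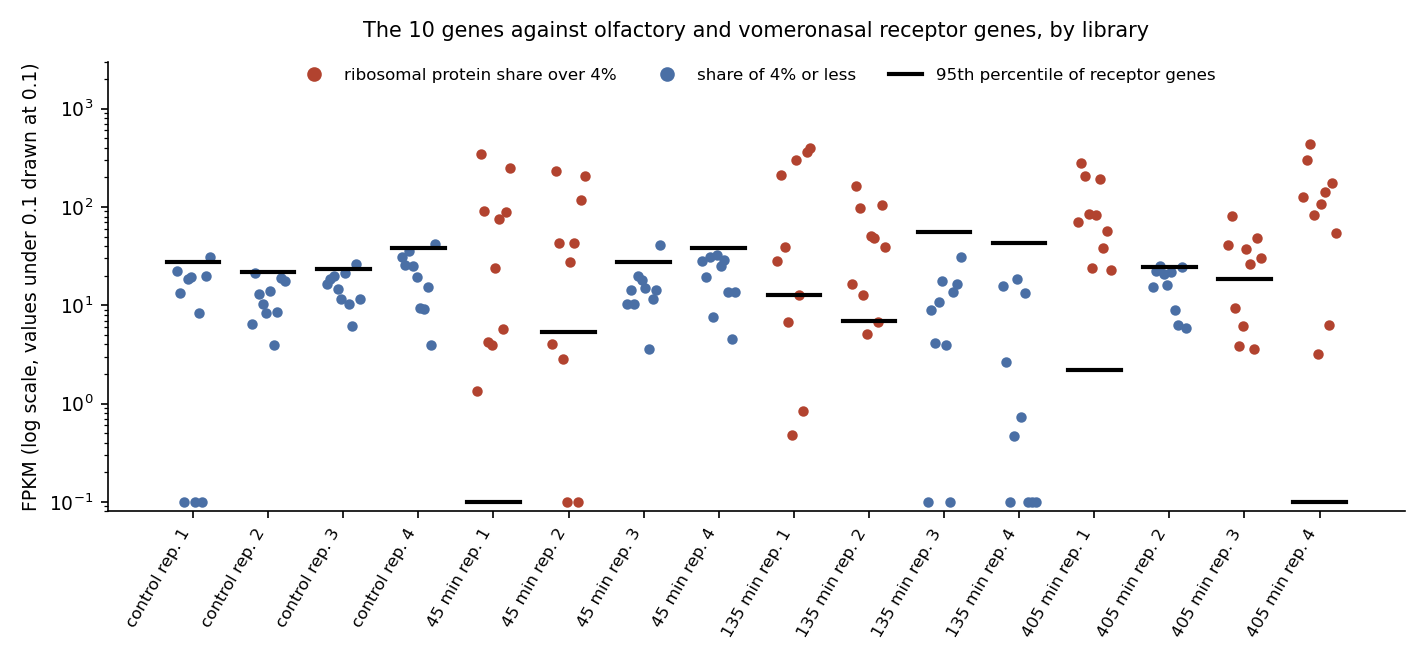
FPKM (log scale) of the 10 genes in each of the 16 libraries as points, and the 95th percentile of the olfactory and vomeronasal receptor genes of the same library as a black bar. Values under 0.1 are drawn at 0.1. In the 9 libraries with a ribosomal protein share of 4% or less at most 1 point lies above the bar, and in the other 7 at least 6 do.

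Within the 7 rich libraries Atf3 was higher at each later time by value and Atf4 overlapped between the times. Ddit3 was highest in 2 of the libraries at 405 min, and Cebpb was lower at later times in CPM. Differences between these genes were not tested. Atf3, a stress-induced leucine zipper factor that forms pairs with other members of its family (chr1:192994175-193007219, minus strand), had 2.67 and 5.4 CPM at 45 min, 35.8 and 31.9 CPM at 135 min, and 177, 83.7 and 185 CPM at 405 min. The controls had 45.2, 13.9, 34.8 and 64.8 CPM, so that the rich libraries at 45 min lay below all 4 controls, those at 135 min lay within their range and those at 405 min lay above it, across a difference in composition. The levels in the rich libraries rested on 33 to 49 fragments at 45 min, 113 to 148 at 135 min and 116 to 3692 at 405 min. The 3 times did not overlap, and each later time lay above the one before, as 19.8% of all tested genes did from 45 to 135 min and 4.78% from 135 to 405 min. The log2 fold change was 2.98 (SE 0.75, unadjusted p = 0.00236) from 45 to 135 min, 2.26 (SE 0.68, unadjusted p = 0.00746) from 135 to 405 min and 5.24 (SE 0.80, unadjusted p = 5.63e-05, adjusted p = 0.484) from 45 to 405 min in edgeR. By p it ranked 1 of 8605 genes from 45 to 405 min and 2 of 8605 from 45 to 135 min, yet it was not called. DESeq2 called it from 45 to 405 min (adjusted p = 1.73e-09), and so did edgeR without a filter on low counts (log2 fold change 5.13, adjusted p = 0.000405).

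Atf4 itself showed no such order. Its levels in the rich libraries were 435 and 264 CPM at 45 min, 172 and 274 CPM at 135 min, and 532, 140.0 and 378 CPM at 405 min. The 3 times overlapped, with both the highest and the lowest of the 7 values at 405 min. The log2 fold change from 45 to 405 min was 0.02 (SE 0.69, adjusted p = 0.995, edgeR), and it was -0.78 (SE 0.76) from 45 to 135 min. With all 16 libraries and the replicate number as a block the first of these was 1.42 and that from 135 to 405 min was 2.27, neither called. Since the fragments of both genes came from the same library, Atf3 can also be given as a percentage of Atf4 fragments, which no scaling changes. It was 0.613% and 2.05% at 45 min. The percentage reached 20.8% and 11.7% at 135 min, and then 33.3%, 59.8% and 49.0% in the libraries at 405 min. The percentages of the 3 times did not overlap, but they reuse the Atf3 fragments given above and are no separate evidence. How many other genes would show this order was not counted.

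Ddit3 encodes CHOP, a C/EBP family factor linked to cell death under prolonged stress (chr10:126727830-126733344, plus strand). It had 65.8 and 21.1 CPM at 45 min, 19.0 and 70.7 CPM at 135 min, and 218, 7.22 and 236 CPM at 405 min. Replicates 1 and 4 at 405 min lay above all other rich libraries, and replicate 3 at 405 min, with 10 fragments, lay below them all. From 45 to 405 min its log2 fold change was 1.89 (SE 1.17, unadjusted p = 0.136) with replicate 3 and 2.45 without it. Exons of Mars overlap Ddit3 on the opposite strand, as those of Tulp2 overlap Ppp1r15a and those of Tmem189 overlap Cebpb, and the sources do not say whether counting used the strand, so some fragments of these 3 genes could belong to the neighbour.

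Cebpb, which encodes a frequent partner of Atf4 (chr2:167514415-167515918, plus strand), was the member whose level in CPM was lower at later times. It had 80.7 and 202 CPM at 45 min, 68.2 and 55.2 CPM at 135 min, and 38.1, 44.8 and 57.8 CPM at 405 min. In CPM, every rich library at 135 and 405 min lay below both at 45 min, as 13.3% and 15.9% of all tested genes did. In FPKM this held at 405 min only. Replicate 1 at 135 min had 402 FPKM and replicate 2 had 38.7 FPKM, against 251 and 207 FPKM at 45 min. From 45 to 405 min the log2 fold change of Cebpb was -1.58 (SE 0.61, unadjusted p = 0.0263, adjusted p = 0.690, edgeR). The summed level of the 10 fibroblast markers was 17808 to 22084 CPM at 45 min, 12317 to 14263 at 135 min and 3493 to 16831 at 405 min. Of the 10, 7 were lower in every library at 405 min than in both at 45 min, and the other 3 (Col1a1, Fn1, Thy1) overlapped. Their part in the course of Cebpb was not tested.

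Of the feedback regulators, Ppp1r15a (chr7:52778286-52781638, minus strand) had 8.54 and 4.58 CPM at 45 min, 8.88 and 29.5 CPM at 135 min, and 304, 9.38 and 145 CPM at 405 min. Replicates 1 and 4 at 405 min exceeded the other rich libraries by far, while replicate 3, with 13 fragments, barely exceeded those at 45 min. The log2 fold change from 45 to 405 min was 4.54 (SE 1.26, unadjusted p = 0.00465, adjusted p = 0.690, edgeR), the 48th smallest p of 8605, and from 135 to 405 min it was 3.17 (SE 1.18, unadjusted p = 0.0217). Without replicate 3 at 405 min, whose receptor share of 2.62% was the highest of the rich libraries, the first of these was 5.08 (adjusted p = 0.320). DESeq2 called Ppp1r15a from 45 to 405 min (adjusted p = 0.00276), as did edgeR without a filter (log2 fold change 4.41, adjusted p = 0.00456). As a percentage of Atf4 fragments Ppp1r15a was 1.97% and 1.74% at 45 min and 5.16% and 10.8% at 135 min. In replicates 1, 3 and 4 at 405 min it was 57.1%, 6.70% and 38.3%.

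Trib3, a pseudokinase that binds Atf4 and Ddit3 and restrains them (chr2:152163158-152169768, minus strand), was among the lowest of the 10 genes in the rich libraries. It had 4.46 and 0 CPM at 45 min, 0.317 and 10.3 CPM at 135 min, and 62.1, 13.0 and 4.92 CPM at 405 min. The value of 0 at 45 min was 0 of 6107601 fragments, which allows up to 0.491 CPM. In the 9 poor libraries Trib3 had 18.6 to 70.5 CPM, and 6 of the 7 rich libraries lay below all of these, the reverse of Atf4. In the 4 controls it had 18.6 to 42.8 CPM, and in 0 of the 9 poor libraries did it lie above the 95th percentile of the receptor genes on the FPKM scale. The filter removed Trib3, and without it the log2 fold change from 45 to 405 min was 3.25 (SE 1.97, adjusted p = 0.636, edgeR).

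**Figure D3:**
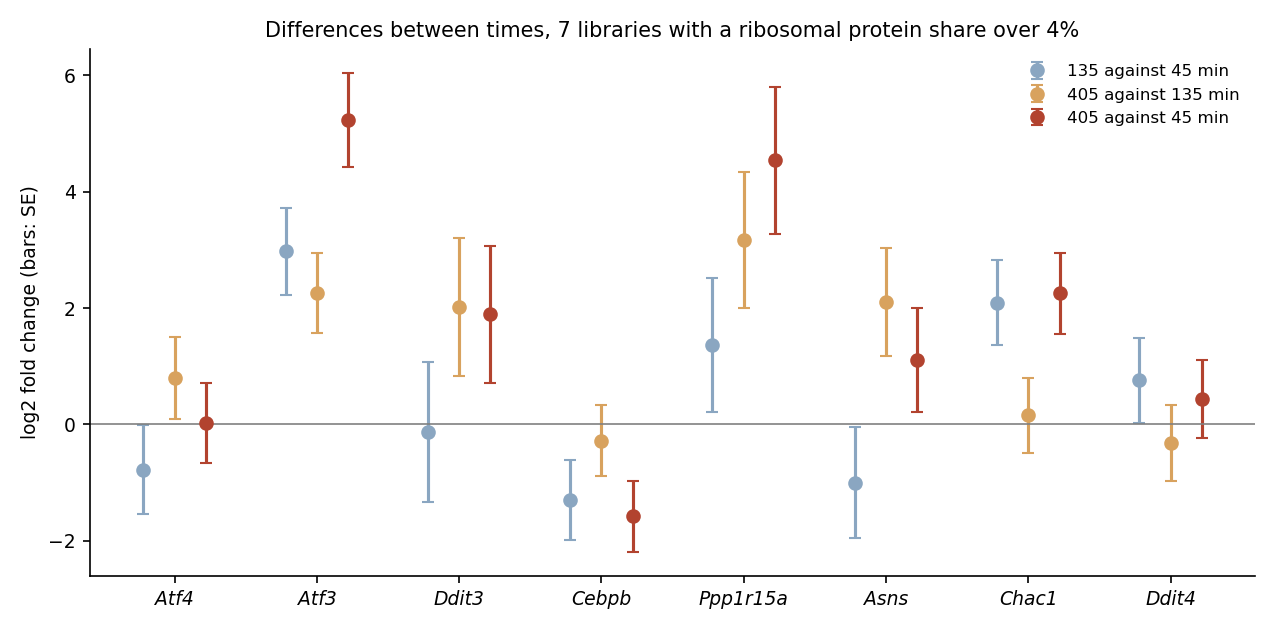
Log2 fold change (edgeR) between the bortezomib times for the 8 members with a count in each of the 7 libraries with a ribosomal protein share over 4%; bars are SE. Atf3 (5.24) and Ppp1r15a (4.54) have the highest values from 45 to 405 min, and Chac1 stands at 2.10 from 45 to 135 min and at 0.16 from 135 to 405 min.

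Of the metabolic enzymes, Chac1 was higher by value at 135 min and Asns at 405 min. Chac1 had 19.4 and 28.5 CPM at 45 min, 138 and 76.5 CPM at 135 min, and 163, 58.5 and 119.8 CPM at 405 min. Both later times lay above 45 min, as 19.8% of all tested genes did at 135 min and 9.24% at 405 min, and they overlapped each other. The log2 fold change was 2.10 (SE 0.73, unadjusted p = 0.0164) from 45 to 135 min, 0.16 (SE 0.64, unadjusted p = 0.811) from 135 to 405 min and 2.25 (SE 0.70, unadjusted p = 0.00890, adjusted p = 0.690) from 45 to 405 min (edgeR). Asns, which makes asparagine from aspartate and glutamine (chr6:7625169-7643254, minus strand), had 130.0 and 56.0 CPM at 45 min, 16.2 and 90.8 CPM at 135 min, and 338, 52.0 and 202 CPM at 405 min. Its times overlapped. The log2 fold change of Asns was -1.0 (SE 0.95) from 45 to 135 min and 2.11 (SE 0.93, unadjusted p = 0.0464) from 135 to 405 min (edgeR). Both promoters hold a CARE core, as printed above, and so does that of Atf3. The difference between the courses of these 3 genes was not tested.

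The mTORC1 inhibitors were Ddit4, which acts through the TSC complex (chr10:59412423-59414518, minus strand), and Sesn2, a leucine sensor (chr4:132047947-132066416, minus strand). Ddit4 had 72.1 and 132 CPM at 45 min, 201 and 169 CPM at 135 min, and 107, 82.3 and 211 CPM at 405 min. Like Atf4 it was higher in all 7 rich libraries than in all 9 poor ones (0 to 46.0 CPM). Both libraries at 135 min lay above both at 45 min, as 19.8% of all tested genes did, and those at 405 min overlapped both earlier times. The log2 fold change of Ddit4 was 0.76 (SE 0.72) from 45 to 135 min and 0.44 (SE 0.67) from 45 to 405 min (edgeR). Sesn2 had 7.18 and 0 CPM at 45 min, 0.634 and 18.1 CPM at 135 min, and 139, 10.1 and 12.8 CPM at 405 min. Its mean at 405 min was set mainly by replicate 1, and the other libraries at that time exceeded the higher one at 45 min by little. The filter removed Sesn2, and without it the log2 fold change from 45 to 405 min was 3.61 (SE 1.26, adjusted p = 0.436, edgeR).

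As a group, 8 of the 10 genes were tested within the rich libraries, as the filter took out Trib3 and Sesn2 for their 0 in replicate 2 at 45 min. From 45 to 405 min edgeR called 0 of the 8 after adjustment, as it did for 0.00% of the 8605 tested genes. At an unadjusted p under 0.05, 3 of the 8 were higher (Atf3, Ppp1r15a, Chac1) and 1 was lower (Cebpb), where 3.01% and 4.15% of all genes were. DESeq2 called 2 of the 8, Atf3 and Ppp1r15a, and 0.721% of the genes to which it gave an adjusted p. Without the filter edgeR called the same 2 of all 10 members and 0.0718% of 22279 genes. The median log2 fold change was 1.5 over the 8 members and 0.14 over all tested genes. Of the 8, 3 lay above 45 min in every library at 405 min (9.24% of all genes did) and 1 lay below (15.9%).

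From 45 to 135 min edgeR called 0 of the 8 members and 0.00% of all genes. Atf3 and Chac1 were higher at an unadjusted p under 0.05, as were 1.28% of all genes, and 0 members were lower, as were 0.360%. DESeq2 called 0 of the 8 and 0.0349% of the genes it adjusted. Of the 8, 4 lay above 45 min in every library at 135 min (19.8% of all genes did) and 1 lay below (13.3%). From 135 to 405 min edgeR and DESeq2 each called 0 members and 0.00% of all genes. Atf3, Ppp1r15a and Asns were higher at an unadjusted p under 0.05 there, as were 1.46% of all genes, and the median over the 8 members was 1.41 against 0.16 over all genes. The 3 comparisons share libraries and so are not independent of each other.

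**Figure D4:**
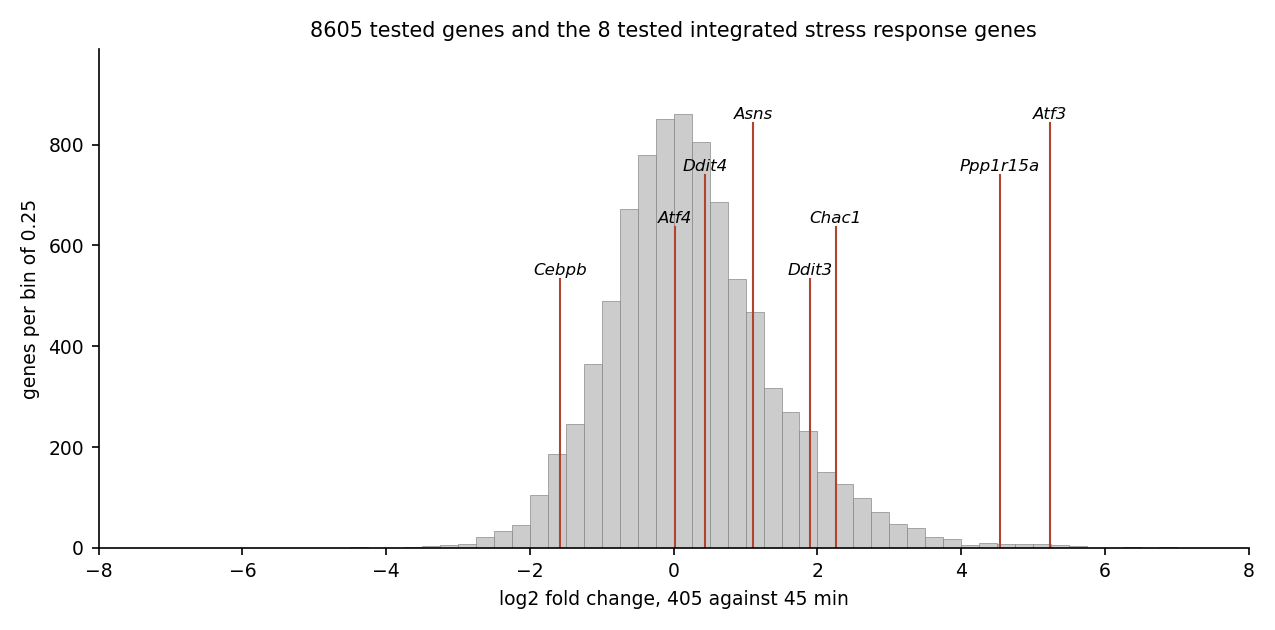
Number of genes per 0.25 bin of log2 fold change from 45 to 405 min for the 8605 genes tested in the 7 libraries with a ribosomal protein share over 4%, with the 8 tested members as vertical lines whose height carries no value. Atf3 (5.24) and Ppp1r15a (4.54) stand in the far right tail, Atf4 (0.02) stands at the centre, and Cebpb (-1.58) stands to the left.

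The order of levels among the 10 genes shifted over the course, on the mean FPKM of the rich libraries. FPKM and CPM of a gene did not keep a fixed ratio between libraries. At 135 min Chac1 had 302 and 51.1 FPKM in replicates 1 and 2, where it had 138 and 76.5 CPM. The places below hold for FPKM only. At 45 min Atf4 (231 and 349 FPKM) and Cebpb (207 and 251 FPKM) led with overlapping ranges, followed by Ddit4 at 89.5 and 118 FPKM, which did not overlap Cebpb. Ddit3 and Asns overlapped next, Chac1 came at 23.9 and 27.8 FPKM, and Ppp1r15a, Sesn2, Atf3 and Trib3 all lay at 5.75 FPKM or less. At 135 min Ddit4, Cebpb, Atf4 and Chac1 led with overlapping ranges, and Trib3 and Sesn2 were last. At 405 min the mean was 221 FPKM for Atf4, 216 for Ddit3, 120.4 for Asns, 92.8 for Ddit4, 79.2 for Atf3, 75.6 for Chac1, 57.2 for Ppp1r15a and 35.6 for Cebpb, with Sesn2 and Trib3 last. Each gene overlapped its neighbour in that order. Atf3 thus went from the 9th place at 45 min to the 5th at 405 min, and Cebpb from the 2nd to the 8th.

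Beyond the 10 genes, 53 other genes of the pathway were listed, among them eIF2 kinases, leucine zipper partners, amino acid transporters, and enzymes of amino acid and one-carbon metabolism. Of these, 44 were tested in the rich libraries, and edgeR called 0 of them in any of the 3 comparisons. From 45 to 405 min 34 of the 44 were higher by value, as were 55.7% of all tested genes, with a median log2 fold change of 1.0. At an unadjusted p under 0.05, 5 of the 44 were higher and 0 lower, where 3.01% and 4.15% of all tested genes were. Slc7a11, the cystine transporter, had the smallest p of these and is named for that reason after its values were seen. It had 7.02 and 4.75 CPM at 45 min, 13.6 and 67.9 CPM at 135 min, and 225, 111.9 and 181 CPM at 405 min. Its log2 fold change from 45 to 405 min was 4.88 (SE 0.85, unadjusted p = 0.000162, adjusted p = 0.672, edgeR), close in size to that of Atf3, and DESeq2 called it.

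From 135 to 405 min 36 of the 44 were higher by value, as were 57.0% of all tested genes, with a median of 0.94, and 10 were higher at an unadjusted p under 0.05, where 1.46% of all tested genes were. Of these 10, 5 belonged to the 12 tested enzymes of amino acid and one-carbon metabolism, the group of Asns, whose median was 1.78. None of the 12 passed that threshold from 45 to 135 min, where their median was -0.56. The 6 kinases and subunits of the eIF2 branch had medians of -0.31, -0.15 and 0.29 over the 3 comparisons, and none passed an unadjusted p under 0.05. Against control, 27 of the 53 had a count in all 16 libraries, and edgeR called 0 of them at each time, with 14 higher at an unadjusted p under 0.05 at 405 min, where 14.5% of all tested genes were. That comparison too mixes bortezomib with composition.

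Among 9381 other genes with a mean of at least 10 CPM in the rich libraries, 5 tracked the mean of the members most closely. By Pearson r of log2(CPM + 1) these were Srxn1 (r = 0.985), Ppm1f (0.978), Hsph1 (0.977), Ankrd11 (0.974) and Snhg12 (0.972). The n = 7 libraries behind each r also differed in depth, from 1385229 to 19930375 fragments, and in composition. The part of these differences in r was not tested. Srxn1, which encodes the antioxidant enzyme sulfiredoxin, had 46.0 and 22.6 CPM at 45 min, 22.8 and 74.0 CPM at 135 min, and 615, 32.5 and 219.9 CPM at 405 min. Hsph1, a chaperone of the heat shock response, had 366 and 110.4 CPM at 45 min, 258 and 980 CPM at 135 min, and 5159, 541 and 4509 CPM at 405 min. In both genes, as in Ddit3, Ppp1r15a and Asns, replicates 1 and 4 at 405 min stood above the other libraries, and replicate 3 at 405 min lay nearer to the earlier times.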

How the data were processed

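Per the labels, RNA was extracted from NIH3T3 cells and libraries were made with a NuGEN kit. The study's methods also describe poly(A) selection, without saying which libraries it applied to. The authors deposited, for each library, estimated counts (raw fragments per gene), between 98.9% and 99.8% of them whole within 0.01, which were rounded here. The authors also deposited FPKM values, used to order levels between genes and as another measure of Cebpb and Chac1. FPKM also served to set the members against the receptor genes and to give their median in each library. The methods name assembly mm9 and RefSeq, and the labels name mm10; the files hold no coordinates. The aligner is not given in the sources used here. In the file of 1 library, 27 symbols had become dates and were restored from the row order that the other files share. No 2 libraries were identical (120 pairs).

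Genes with at least 1 count in every library of a fit were tested with edgeR 4.0.16 (R 4.3.3), quasi-likelihood, TMM and 1 mean per group, with Benjamini-Hochberg adjustment over all tested genes and a threshold of 0.05. All 16 libraries entered the tests against control (5030 genes, 12 residual degrees of freedom), and the 7 libraries with a ribosomal protein share over 4% entered the tests between times (8605 genes, 4 degrees of freedom). The SE was taken as the absolute log2 fold change over the root of edgeR's F. CPM was taken over all fragments without scaling, and its depth-related floor is 3 fragments, which covers counting error only. Members that the filter took out were compared with control by exact permutation tests over all genes. The code was tested on simulated data. The 10 genes were always named; other pathway genes were to be named when called, and the 5 genes most like the members by Pearson r over the 7 libraries. The members and lists were chosen with earlier results of these data known. Replicate numbers come from the labels, which do not say what they share; libraries of one number deviated together between 45 and 135 min (r 0.513 to 0.557 in 4 of 4 pairs) and not in every pair of the other groups. DESeq2 1.42.0, other filters and scalings, thinning, the replicate number as a block, covariates and leaving out each library were the alternatives. Fits by receptor share, DESeq2 without independent filtering and leaving out libraries in the permutation tests were chosen after seeing the data. Positions came from GENCODE M1 (NCBIM37) and promoters from RefSeq (GRCm38.p6).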

Additional observations from a re-analysis of the deposited data

Results flagged for a closer look

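Of 52 groups of 4 libraries examined (the 10 members, depth, ribosomal protein share and share of genes at 0, in each group), 2 held a library far from the other 3 by Dixon's criterion, where chance alone gives about 2.6. Atf3 in replicate 3 at 135 min had a log2(CPM + 1) of 0, and the other 3 libraries of that time had 5.04 to 5.20. Cebpb in replicate 4 at 135 min had a log2(CPM + 1) of 0, and the other 3 had 5.74 to 6.11. Both libraries are ribosomal protein-poor, with 570323 and 880609 fragments, so that a count of 0 allows up to 5.26 and 3.41 CPM. Their values enter the exact permutation tests at 135 min only, and not the comparisons within the 7 ribosomal protein-rich libraries.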

How the results depend on the processing

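Within the 7 ribosomal protein-rich libraries, Atf3 from 45 to 405 min kept a log2 fold change between 4.80 and 5.55 over the 10 settings tried, and between 4.78 and 5.89 when each library was left out. Its adjusted p ran from 1.73e-09 to 0.521 over the settings. Ppp1r15a ran from 2.93 to 5.08 over 12 settings and from 3.73 to 5.08 without each library. Whether these 2 members were called depended on the test and the filter. The cause of each change below was not tested.

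Without any library left out, edgeR called 0 members and 0 genes in each of the 6 comparisons, and leaving out each library in turn gave 0 to 0. DESeq2 called 1 member and 330 genes at 45 min, 173 genes at 135 min, and 1 member and 404 genes at 405 min against control. Without independent filtering it called 1 gene at 45 min, 2 genes at 135 min, and 1 member and 217 genes at 405 min. In the rich libraries both versions called 3 genes from 45 to 135 min, and 2 members and 62 genes from 45 to 405 min. The fits that follow held more genes than the main ones, which had 5030 against control and 8605 in the rich libraries. There were 19357 and 19277 with filterByExpr, 22359 and 22279 without a filter, and 8778 with a receptor share under 0.5%. With filterByExpr, edgeR called 1 gene at 405 min against control. From 45 to 405 min it called 1 member and 6 genes, and from 135 to 405 min 4 genes. Without a filter it called 1 gene at 405 min against control, 3 genes from 45 to 135 min, 2 members and 16 genes from 45 to 405 min, and 8 genes from 135 to 405 min. With only libraries whose receptor share was under 0.5%, chosen after seeing the data (2 at 45, 1 at 135 and 2 at 405 min, the lone library being assumed to vary like the others), it called 2 members and 4 genes from 45 to 405 min, and 2 members (Ppp1r15a, 4.60, and Asns, 4.02) and 419 genes from 135 to 405 min.

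The sign of Atf4 against control turned with the log2 ribosomal protein share as a covariate (-0.16, -1.26 and -0.26 at 45, 135 and 405 min) and in the poor libraries alone (-0.24 and -1.89 at 45 and 135 min; at 405 min that class has 1 library). From 45 to 405 min Atf4 turned to -0.10 both with filterByExpr and without a filter. From 45 to 135 min Ppp1r15a turned to -0.22 with all 16 libraries, and Ddit3 turned to 0.15 with library size only, 1.61 with a covariate for the log2 share of receptor genes and 0.12 after thinning. Asns at 135 min against control turned to 0.23 with a pseudocount of 5.

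Leaving out 1 library turned the sign of 15 member values, each under the threshold. In the rich libraries the ranges were -1.13 to 0.82 for Ddit3 from 45 to 135 min, -0.31 to 0.41 for Atf4 and -0.23 to 1.0 for Ddit4 from 45 to 405 min, and -0.31 to 0.82 for Chac1 and -0.57 to 0.012 for Cebpb from 135 to 405 min. Against control they were -1.45 to 0.88 for Sesn2 and -0.048 to 1.24 for Ddit4 at 45 min, -1.05 to 1.12 for Asns, -1.12 to 0.92 for Cebpb, -0.22 to 2.02 for Chac1, -0.98 to 1.11 for Ddit3 and -0.60 to 1.96 for Ddit4 at 135 min, and -0.26 to 0.59 for Cebpb, -0.17 to 1.67 for Sesn2 and -1.12 to 0.020 for Trib3 at 405 min.

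Between 45 and 135 min all 4 pairs of libraries with the same replicate number deviated together (r from 0.513 to 0.557), and in both groups replicates 1 and 2 were rich and replicates 3 and 4 poor. In every other pair of groups at least 1 of the 4 pairs had an r of 0.1 or less (24 pairs in all, from -0.761 to 0.611, with 5 of 16 libraries closest to their own number). With the replicate number as a block, 0 members and 0 genes were called in any of the 6 comparisons. Under the block Atf4 against control was 1.67, 0.82 and 3.09 at 45, 135 and 405 min, and between times it was -0.85 from 45 to 135 min, 1.42 from 45 to 405 min and 2.27 from 135 to 405 min. Depth limits the poor libraries most, where 1 fragment is worth 0.680 to 1.75 CPM.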

Other observations

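The 5 ribosomal protein-poor libraries from treated cells give the members at another composition, where controls exist. Of the 10 members, those above all 4 controls numbered 0 in replicate 3 at 45 min, 3 in replicate 4 at 45 min (Asns, Chac1, Trib3), 0 in replicate 3 at 135 min, 1 in replicate 4 at 135 min (Asns) and 1 in replicate 2 at 405 min (Chac1). Those below all 4 controls numbered 1, 1, 3, 4 and 1 in the same libraries. Hspa1b had 12.9 and 52.9 CPM in the poor libraries at 45 min and 42.1 and 51.1 CPM in those at 135 min. In replicate 2 at 405 min, Atf4 had 40.3 CPM and Ddit3 19.5 CPM, inside the ranges of the controls, while Hspa1b had 1292 CPM against 19.7 to 48.8 CPM in the controls and Hsph1 205 CPM against 31.6 to 39.5 CPM. The chaperone gene Dnajb1, also set as a check of the treatment, had 49.4 CPM in this library, inside its control range of 32.4 to 51.9 CPM. With 1 library there is no test.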
